A study of Mus musculus with 8 samples.

Results

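The lost intergenic regions are 1834 stretches of the mouse genome, away from protein-coding genes, that carried a called H3K27ac peak in both libraries of freshly isolated muscle stem cells and in neither library of the same cell type after muscle injury. H3K27ac is acetylation of lysine 27 on histone H3. They were chosen by the presence and absence of peaks: the peaks of all 4 libraries that overlapped by at least 1 base were merged into 72585 regions, and a region was kept when its midpoint lay outside every protein-coding gene body and more than 2 kb from any protein-coding gene end. The members make up 2.53% of all merged regions and 34.6% of the 5301 regions with peaks in both freshly isolated libraries only (95% Wilson interval 33.3 to 35.9%, covering counting error only). A further 3000 of those 5301 regions lay in gene bodies and 467 lay within 2 kb of a gene end. Because peak calls chose the members, their height in the freshly isolated cells and their absence after injury are given as a description, with no test.

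All cells came from skeletal muscle of C57BL/6 mice and are labelled muscle stem cells. The group FISC was freshly isolated from mice given no treatment, and the group ASC was isolated 2.5 days after injury with BaCl2, a chemical that destroys myofibres. Each group had 2 H3K27ac libraries made by ChIPmentation, in which a transposase adds sequencing adapters to antibody-bound chromatin, and input libraries that are not analysed here. Whether replicates were separate animals is not in the labels, so the spread between them, and any p-value built on it, may be technical. No source used here gives the age or sex of the mice or the sort that isolated the cells.

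Muscle stem cells, also called satellite cells, lie quiescent beneath the basal lamina of myofibres and re-enter the cell cycle after damage. Acetylated H3K27 marks active promoters and active enhancers, and enhancers often lie between genes at a distance from the promoters they act on. A peak list records where the mark passed a caller's threshold, so a missing peak is not a measurement of no acetylation.

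No genome sequence of the files' build was used, so sequence was read only where RefSeq places the start of a long non-coding RNA (lncRNA) inside a region. Such starts fell in 37 of the 1834 lost regions (2.02%). The share was 1.74% in gained intergenic regions (2 ASC peaks and no FISC peak) and 8.62% in shared intergenic regions (peaks in all 4 libraries). The start lay a median of 121 bases from the mean FISC summit, the point of highest signal, and within 300 bases of it for 32 of the 37. The windows below run from 250 bases before to 50 bases after the start, 5′ to 3′ on the strand of the lncRNA, and come from RefSeq for assembly GRCm38.p6, which is mm10. They belong to the 6 strongest regions whose window lay wholly inside the region, and are shown as the sequence that could be read here, not as a sample of the other lost regions. Capitals mark matches on either strand to the E-boxes CAGCTG and CAGGTG (bound by myogenic and other helix-loop-helix factors), to TGANTCA (AP-1), TGTGGT (RUNX), TGTTTAC (forkhead factors) and GTGGGAA (RBPJ, the DNA-binding factor of Notch signalling).
Gm14616: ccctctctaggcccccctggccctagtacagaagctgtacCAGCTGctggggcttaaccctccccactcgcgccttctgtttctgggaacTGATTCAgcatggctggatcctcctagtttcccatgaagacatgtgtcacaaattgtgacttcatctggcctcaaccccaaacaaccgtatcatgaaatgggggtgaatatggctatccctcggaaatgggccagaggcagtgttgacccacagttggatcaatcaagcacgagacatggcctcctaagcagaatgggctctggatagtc
Gm38991: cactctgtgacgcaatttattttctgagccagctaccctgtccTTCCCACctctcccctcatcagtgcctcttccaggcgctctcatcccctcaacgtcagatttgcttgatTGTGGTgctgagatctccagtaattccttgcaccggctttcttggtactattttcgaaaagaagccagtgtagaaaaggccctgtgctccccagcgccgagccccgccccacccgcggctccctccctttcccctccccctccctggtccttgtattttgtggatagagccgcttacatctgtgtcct
Gm41638: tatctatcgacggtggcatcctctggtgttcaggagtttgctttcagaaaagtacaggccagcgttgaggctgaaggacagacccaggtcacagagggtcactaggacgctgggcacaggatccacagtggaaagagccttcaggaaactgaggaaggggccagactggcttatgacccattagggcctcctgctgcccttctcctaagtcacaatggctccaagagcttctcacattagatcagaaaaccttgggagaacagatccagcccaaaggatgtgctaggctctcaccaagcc
Gm34620: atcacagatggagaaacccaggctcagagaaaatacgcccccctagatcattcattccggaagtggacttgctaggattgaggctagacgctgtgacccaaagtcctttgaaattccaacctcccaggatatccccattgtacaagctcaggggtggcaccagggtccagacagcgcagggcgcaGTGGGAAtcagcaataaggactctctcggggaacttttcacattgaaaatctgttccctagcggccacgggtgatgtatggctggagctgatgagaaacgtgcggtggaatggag
Gm34516: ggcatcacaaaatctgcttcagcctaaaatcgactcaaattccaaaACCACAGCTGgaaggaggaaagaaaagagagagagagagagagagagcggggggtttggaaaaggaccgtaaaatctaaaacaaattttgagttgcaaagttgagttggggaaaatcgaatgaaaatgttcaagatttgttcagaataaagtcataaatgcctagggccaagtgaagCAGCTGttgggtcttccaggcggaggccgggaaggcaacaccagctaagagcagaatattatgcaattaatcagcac
Gm20083: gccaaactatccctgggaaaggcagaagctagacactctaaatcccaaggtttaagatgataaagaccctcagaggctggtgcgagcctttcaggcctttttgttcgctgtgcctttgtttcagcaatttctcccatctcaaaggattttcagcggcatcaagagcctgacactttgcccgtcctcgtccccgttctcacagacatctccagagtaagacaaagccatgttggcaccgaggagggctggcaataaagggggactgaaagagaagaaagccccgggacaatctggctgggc

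Gm14616 starts in the widest of all lost regions, chr2:174855149-174858555, 72.8 kb from Edn3, and its window at chr2:174855654-174855953 (plus strand) held 1 CAGCTG and 1 AP-1 match. The Gm38991 window, chr7:36075993-36076292 (plus strand), lies 273 kb from Zfp507 and held 1 RUNX and 1 RBPJ match. The Gm34620 window, chr11:102989697-102989996 (plus strand), lies 3.89 kb from Dcakd and held 1 RBPJ match. The Gm34516 window, chr19:25924263-25924562 (plus strand), lies 245 kb from Dmrt2 and held 2 CAGCTG matches and 1 RUNX match, which overlaps the first of them. No marked motif occurs in the Gm41638 window, chr17:83960888-83961187 (minus strand), 112 kb from Haao, or in the Gm20083 window, chr7:73185137-73185436 (plus strand), 190 kb from Rgma.

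Across the 37 starts the median GC content was 51.7%, against 49.2% for 108 starts in gained regions, 53.3% for 326 starts in shared regions and 48.7% for all 9533 lncRNA starts in the table. Of 24 motifs searched on both strands, the C/EBP sequence TTGCNNAA was in 10 of the 37 windows (27%, Wilson interval 15.4 to 43.0%), against 13.0% of the gained, 11% of the shared and 11.9% of all lncRNA windows. The FOX sequence TGTTTAC was in 4 windows (10.8%, 4.29 to 24.7%) against 2.78% of the gained, 3.37% of the shared and 4.66% of all, and the RBPJ sequence GTGGGAA in 5 (13.5%, 5.91 to 28%) against 8.33%, 5.21% and 6.94%. AP-1 (TGANTCA) was in 4 of the 37 (10.8%, 4.29 to 24.7%), in 24 of the 108 gained windows (22.2%, 15.4 to 30.9%) and in 9.49% of all. CAGCTG was in 21.6% of the lost, 22.2% of the gained and 23.6% of the shared windows, against 17.9% of all lncRNA windows, and the E-box CAGGTG in 16.2%, 19.4% and 17.2%, against 21.4% of all. RUNX (TGTGGT), KLF and SP (GGGCGGG) and SOX (ACAAAG) were each in 7 of the 37 (18.9%, 9.48 to 34.2%). RUNX was in 30.6% of the gained, 20.2% of the shared and 20.2% of all windows. KLF and SP was in 5.56%, 21.8% and 10.7%, and SOX in 30.6%, 19.0% and 22.3%. C/EBP had the highest lost share of the 24, and no motif was tested. With 37 windows these intervals are wide, most of them overlap those of the gained and shared windows, and a match is a description of letters, not of binding. The other motifs searched were the Myc-type E-box CACGTG, the cyclic AMP element TGACGTCA, the TEAD site CATTCC, the GATA site AGATAA, the nuclear receptor site AGGTCA, the STAT site TTCNNNGAA, the ETS site CCGGAAGT and the homeobox site TAATTA. Searched by name were the NF1 dimer, the glucocorticoid response element, EBF, CTCF, MEF2, the SRF CArG box and the PAX homeodomain dimer. Matches to different motifs may share bases.

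The lost regions were narrow and of low enrichment. Their median width was 590 bases (218 to 3407), against 701 bases in gained and 1632 bases in shared intergenic regions, and together they covered 1.26 Mb. A width joins the peaks of 4 libraries in shared regions and of 2 in lost ones, so the rule set part of this contrast. Counted within FISC replicates 1 and 2 alone, the median bases under peaks were 443.5 and 431 in lost regions and 901 and 919 in shared ones. The authors' fold enrichment over background at the strongest peak of a region had a median of 4.30 in FISC replicate 1 (2.29 to 10.8) and 4.45 in FISC replicate 2 (2.37 to 13.1). Shared intergenic regions had a median of the 2-library mean fold of 6.08 in FISC and 8.92 in ASC, and gained ones had 5.23 in ASC, against 4.37 for the mean FISC fold of the lost regions. Both FISC libraries reached 5-fold in 266 of the 1834 regions, and the mean fold was at least 8 in 22.

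**Figure D1:**
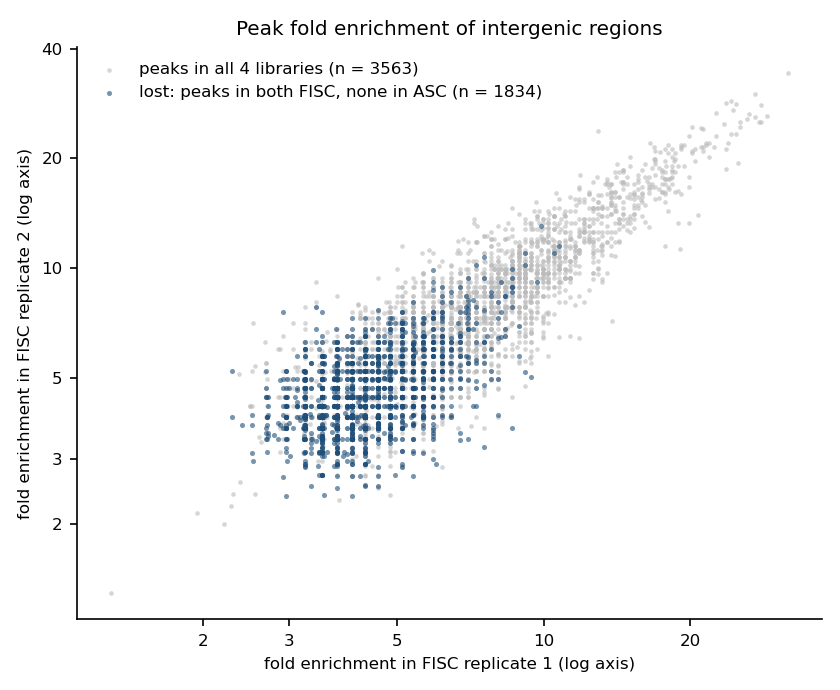
Fold enrichment of each intergenic region in FISC replicate 1 (x axis) and FISC replicate 2 (y axis), both log axes, for 1834 lost regions (blue) and 3563 shared regions (grey). The quartiles of the lost regions are 3.77 and 4.94 in replicate 1 and 3.93 and 5.24 in replicate 2, and shared regions run on to higher values.

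The rule joined FISC peaks that overlap, so their summits had to lie close. They were a median of 114 bases apart in lost regions and 95 bases apart in shared ones, and lay within 100 bases of each other in 851 lost regions (46.4%). Over the lost regions the folds of the 2 libraries had a Pearson r of 0.56 and a Spearman rho of 0.44, a description over regions that share the caller's lower threshold. Read back from the deposited fold on the assumption that 1 was added to both summit and background, the lost peaks rested on a median of 15 reads at the summit in FISC replicate 1 (9 to 39) and 16 in FISC replicate 2 (10 to 49), for the 79.9% and 75.8% of regions whose values came out whole within 0.01 reads. Fitted background was lowest in ASC replicate 1, at 2.33 reads, and 2.72 to 2.86 reads in the other 3 libraries. The ASC lists were longer, with 50154 and 54700 peaks over 49.2 and 57.7 Mb, than the FISC lists, with 45014 and 43092 peaks over 34.4 and 33.7 Mb. Input libraries and reads are not analysed here, so the total depth is unknown.

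Many regions sat close to the rule's limits. Another 679 intergenic regions had peaks in both FISC libraries and in exactly 1 ASC library, which was replicate 2 for 577 and replicate 1 for 102, with a median fold of 4.78 in FISC and 3.88 in ASC. A further 3413 had a peak in 1 FISC library alone, with a median fold of 3.77. At the distance limit, 25 members had midpoints between 2.0 and 2.5 kb from a gene end (median fold 4.37), and 25 FISC-only regions outside gene bodies lay between 1.5 and 2.0 kb (median fold 4.12).

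Peaks around the lost regions also covered more bases in FISC than in ASC. In the 10 kb on each side, FISC peaks covered a mean of 1455 and 1495 bases in replicates 1 and 2, and ASC peaks covered 768 and 978 bases, a ratio of means of 1.69 ± 0.290 (SD carried over from the 2 replicates of each group). The FISC and ASC libraries did not overlap, although whole ASC lists cover more of the genome. Around gained regions the order was the opposite, with 1520 and 1798 bases in ASC and 483 and 491 in FISC, and around shared regions ASC had 1579 and 1942 and FISC 1229 and 1286. The ratio was 2.06 within 5 kb and 1.17 within 50 kb. This is a description, since the same libraries and the same contrast chose the regions. The flanks also take in other lost regions, which carry FISC peaks and no ASC peak by the rule. Of the members, 746 (40.7%) had another lost region less than 12 kb away, so the rule itself set part of this ratio. With 2 libraries against 2 an exact permutation test cannot go below a two-sided p of 0.333.

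**Figure D2:**
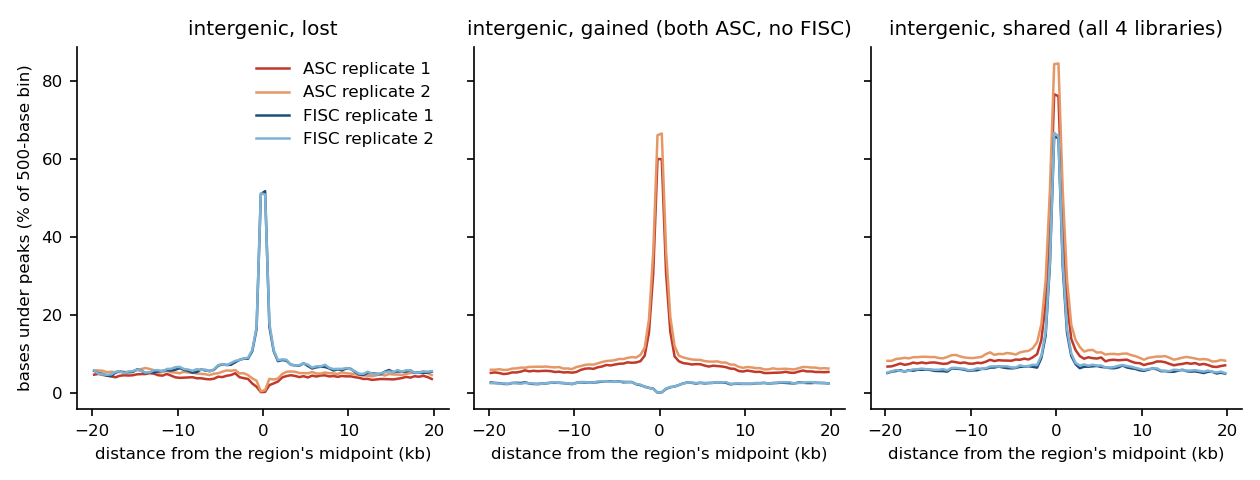
Bases under peaks in 500-base bins (percent of the bin, y axis) against distance from the midpoint (kb, x axis) for lost, gained and shared intergenic regions, 1 line per library. Around lost regions both FISC lines rise to about 51% at the midpoint and stay above both ASC lines for several kb. At -9.75 kb on the x axis FISC lies at 6.36 and 6.70% and ASC at 3.88 and 5.06%.

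The mark did not leave these neighbourhoods altogether. The nearest ASC peak lay a median of 8.90 kb from the edge of a lost region, within 500 bases for 206 regions (11.2%) and within 10 kb for 972 (53.0%). A gained region had its midpoint within 10 kb of 177 lost regions (9.65%), against 26.0% of shared regions and 53.6% of gained regions counted beside another gained region. For these shares the gained neighbours include those in gene bodies and at gene ends. For 263 lost regions (14.3%) no ASC peak lay within 50 kb.

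The lost regions stood at a median of 38.1 kb from the nearest protein-coding gene end, against 35.6 kb for gained and 28.1 kb for shared intergenic regions. Of the 1834, 338 (18.4%) lay within 10 kb and 498 (27.2%) lay more than 100 kb away. Where RefSeq gave the strand, 726 were upstream and 688 downstream of the nearest gene. The midpoint was in a lncRNA gene for 424 (23.1%, against 19.9% of gained and 25.7% of shared regions). By chromosome, lost regions made up between 3.63% (X) and 11.4% (chromosome 6) of intergenic regions, with none of the 26 on Y, and chromosome 6 fell to 9.17% without the longest chain of regions described next.

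Some lost regions came in chains. Regions less than 12 kb apart formed 292 chains of at least 2, which held 746 regions (40.7%), and 87 of these had 3 or more. No chain count is given here for gained or shared regions. Of gained intergenic regions 53.6% had another gained region within 10 kb between midpoints, with gained regions in gene bodies and at gene ends counted too. The lost chains count lost intergenic regions only, so the shares are unlike. Whether closeness is particular to lost regions cannot be read from them. The longest chain of lost regions was of another order. It ran over 127 kb at chr6:114499561-114627054, between Hrh1, a histamine receptor gene, and Atg7, which encodes an enzyme of autophagy. It held 33 lost regions and 41 regions seen in a single FISC library, and no peak of either ASC library. FISC replicate 1 had 58 peaks covering 18% of the span at a median of 3.77-fold, and FISC replicate 2 had 50 peaks covering 14.4% at 4.17-fold. The highest fold was 5.99 in replicate 1 and 5.92 in replicate 2, and no protein-coding gene lay in the span. At the start of Atg7, just beyond it, all 4 libraries had a peak. The cause of this pattern was not tested, and the count of members is 1801 without it.

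**Figure D3:**
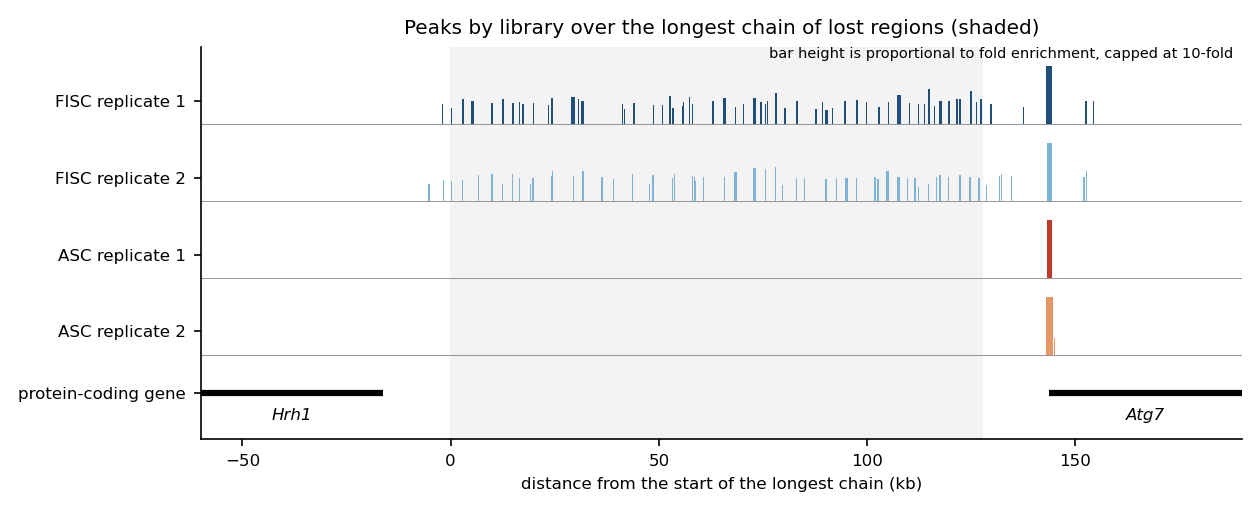
Peaks in each library (rows, bar height proportional to fold enrichment and capped at 10-fold) against distance from the start of the longest chain (kb), with the protein-coding genes below. The shaded 127 kb holds 58 and 50 FISC peaks and no ASC peak, and every library has a tall peak at the Atg7 start.

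The other long chains were short by comparison. A chain of 7 regions spanned 18.4 kb between Acox3, a peroxisomal oxidase gene, and Htra3, which encodes a secreted serine protease. There FISC peaks covered 30.3 and 33.5% of the span, and ASC peaks 2.78 and 1.69%. A chain of 6 regions spanned 33.9 kb near S1pr3, which encodes a receptor for sphingosine-1-phosphate, with 16.3 and 18.6% covered in FISC and 2.46 and 2.03% in ASC. A chain of 6 near Mrps28, a mitochondrial ribosomal protein gene, had 38.9 and 36.9% covered in FISC and 6.19 and 10.2% in ASC. A last chain of 6, near Eipr1, had 15.5 and 12.2% covered in FISC and no ASC peak.

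The strongest lost region, chr7:100073498-100075912, was nearest to Pold3, a DNA polymerase delta subunit gene, and lay between it and Chrdl2, which encodes a chordin-like BMP antagonist. Its fold was 9.88 in FISC replicate 1 and 13.1 in replicate 2, and the nearest ASC peak was 20.4 kb away. A region 104 kb from Foxn2, a forkhead factor gene, reached 10.8 and 11.5 (chr17:88335418-88337143). At chr11:54881296-54882616 a region nearest to Hint1 reached 10.5 and 11. Beyond it lay a weaker region, at 3.50 and 7.59, whose nearest gene was Gpx3, which encodes the secreted glutathione peroxidase. FISC peaks covered 5658 and 6436 bases of the flanks of the stronger one and ASC peaks 316 and 582, the nearest of them 0.131 kb away.

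The remaining strongest regions are named by their nearest gene, with its distance and the 2 folds. They were Efcab11 (36.8 kb, 9.15 and 11), Moxd1 (85.8 kb, 9.15 and 10.2) and Tnfaip3, the NF-kB inhibitor A20 (103 kb, 9.68 and 9.16). Next came Gxylt2, a xylosyltransferase that modifies Notch (8.92 kb, 8.61 and 9.95), and Tgfbi, a matrix protein gene (20.7 kb, 7.53 and 10.7). Last were Rgma, a co-receptor gene of BMP signalling (23.9 kb, 8.61 and 9.41), and Edn3, endothelin 3 (72.8 kb, 8.61 and 8.91). These regions did not stand equally clear of ASC signal. The Tnfaip3 region had an ASC peak 0.063 kb away and more ASC than FISC coverage in its flanks (3603 and 4050 against 2715 and 2397 bases). The Efcab11 region had no flanking peak in any library. The widest regions were the Edn3 one (3407 bases) and those nearest to Plekhf1 (3001), Utp25 (2835), Slc28a1 (2705) and Abraxas2 (2505 bases).

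The regions were nearest to 1077 protein-coding genes, of which 714 had 1 lost region and 165 had at least 3. Atg7 (19) and Hrh1 (14) had the most, all from the chain between them. Rgma followed with 12, beside 6 gained and 6 shared regions. Vps13c, a lipid transfer protein gene, had 11 and Eipr1 had 9, and neither had a gained region. Sox4, a developmental transcription factor gene, had 9 lost, 11 gained and 15 shared regions. S1pr3 had 7 lost and no gained regions, and Bmp4, a bone morphogenetic protein gene, had 7 lost and 3 gained.

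Among gene lists, satellite cell identity genes were nearest to 13 lost regions (0.709%), against 0.248% of gained, 0.533% of shared and 0.447% of all intergenic regions. The all-region share lies inside the Wilson interval of the lost share, 0.415 to 1.21%, and the lost regions lay at 7 genes of the list and the gained at 6. Chrdl2 and Cxcr4, which encodes a chemokine receptor of satellite cells, had 4 each. Cd34, Cdh15 (M-cadherin), Met (the hepatocyte growth factor receptor), Pax7 (the factor that defines satellite cells) and Sdc3 had 1 each. The 2 strongest Chrdl2 regions had folds of 6.19 and 5.76, and of 5.11 and 6.68, and their flanks held 8095 and 7349, and 4769 and 5437 FISC bases, against 1737 and 2260, and 1258 and 1836 ASC bases. Quiescence genes were nearest to 28 (1.53%, against 1.06% of gained, 1.91% of shared and 1.48% of all intergenic regions), with 5 each at Foxo1, a forkhead factor gene, and Gas1, a growth arrest gene. Metabolic and stress regulators were nearest to 13 (0.709%, against 0.497%, 0.533% and 0.657%), among them Cebpb and Pparg with 3 each, Gpx3 and Sod3, the extracellular superoxide dismutase gene.

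The remaining lists, like the quiescence genes, were nearest to fewer lost than shared regions by share. Growth factor genes were nearest to 20 (1.09%, against 1.26% of gained, 1.35% of shared and 1.18% of all), of which Bmp4 had 7. Extracellular matrix genes had 12 (0.654%, against 0.977%, 0.786% and 0.885%). Early response factors had 8 (0.436%, against 0.646%, 1.09% and 0.720%) and cell cycle genes 7 (0.382%, against 0.861%, 1.07% and 1.01%). Notch pathway genes had 5 (0.273%, against 0.530%, 0.617% and 0.488%), 1 for each gene. They lay 4.025 kb from Hes6, 11.9 kb from Notch1, 128 kb from Rbpj, 138 kb from Hey2 and 320 kb from Jag1. Myogenic commitment genes had 2 (0.109%, against 0.182%, 0.253% and 0.196%), at Des and Myh3. Some genes stand in more than 1 list, and regions that share a nearest gene are not independent, so no list was tested.

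**Figure D4:**
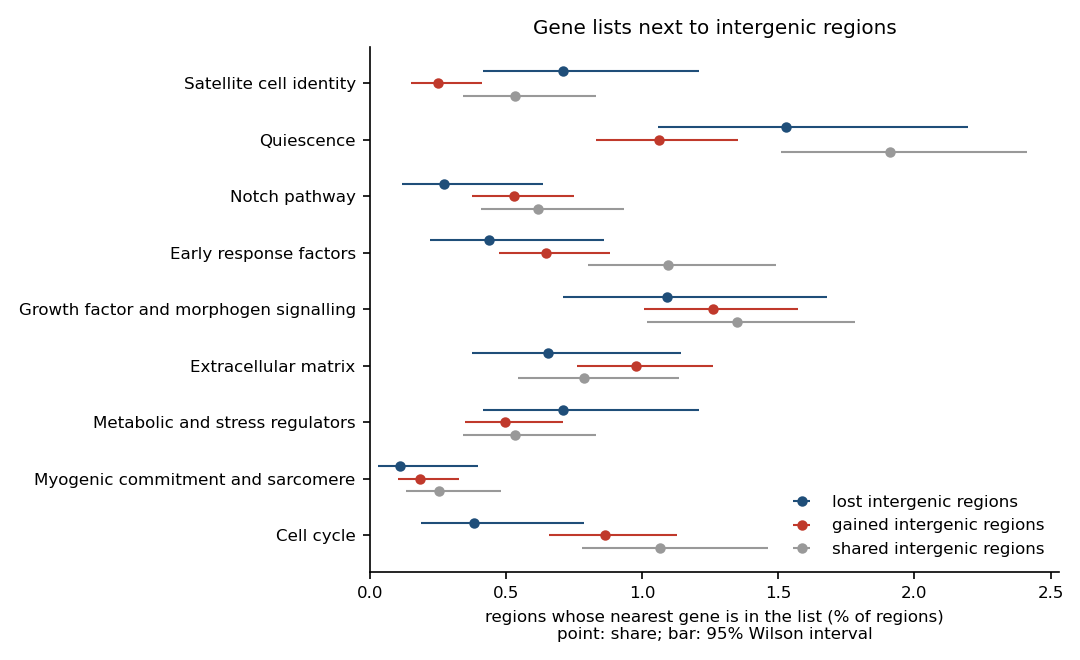
Share of lost (blue), gained (red) and shared (grey) intergenic regions whose nearest gene belongs to each list (percent, x axis), with 95% Wilson intervals that count each region as independent, although several share a gene. For satellite cell identity the lost share, 0.709%, lies above the gained share, 0.248%, and for cell cycle genes the lost share of 0.382% lies below both others.

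To ask whether the neighbouring genes also changed at their own ends, limma was fitted over 12452 genes. It took the kb under peaks within 2 kb of 1 end of each gene, the annotated start where the strand is known. Elsewhere it took the end with more bases under peaks in the 4 libraries together, which may be the 3′ end. Among named genes with a call this was so for Chrdl2, Hint1, Sod3 and Tbx3. The window spans 4 kb, so 4 kb is the ceiling. Of the 1077 nearest genes 808 could be tested, and 75 fell (9.28%) and 171 rose (21.2%) in ASC at a Benjamini-Hochberg adjusted p under 0.05, against 3.30% of all genes falling and 25.9% rising. The median difference, ASC minus FISC, was 0.16 kb for the nearest genes and 0.28 kb for all genes. Among 223 tested genes with a lost region within 10 kb, 41 fell (18.4%) and 41 rose (18.4%), and among 230 whose closest lost region was over 50 kb away, 8 fell (3.48%) and 53 rose (23.0%). Genes nearest to gained regions fell in 51 of 2007 cases and rose in 670. The regions were chosen on the same contrast in the same libraries, so these shares are a description, and nothing was tested about the nearest genes as a set. The counts take in genes covered in 1 condition alone, such as Col15a1 and Myh3, whose number is not given.

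The split depended on scaling. With each library divided by its total covered length, 465 nearest genes fell and 41 rose, and the median of all genes moved from 0.28 to -0.35 kb. With lists cut to equal covered length 141 fell and 102 rose. The share that fell was 57.5% of the nearest and 39.6% of all genes under the first of these, and 18% and 12.4% under the second. Without FISC replicate 1 the numbers were 16 and 54, without FISC replicate 2 they were 15 and 54, without ASC replicate 1 they were 49 and 169, and without ASC replicate 2 they were 62 and 82.

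The 5 largest falls among genes nearest to at least 2 lost regions were at receptor, ligand, inhibitor and protease genes. S1pr3 had 2.99 kb in both FISC libraries and 0.276 and 0.596 kb in ASC, and fell by 2.56 kb (SE 0.155, adjusted p = 0.00183, limma). Edn3 had 2.75 and 2.27 kb in FISC and 0.414 and 0.623 kb in ASC, and fell by 1.99 kb (SE 0.2, adjusted p = 0.00412, limma). Bmp4 had 2.54 and 2.27 kb in FISC and 0.340 and 1.08 kb in ASC, and fell by 1.70 kb (SE 0.272, adjusted p = 0.0129, limma). For these 3, and for Chrdl2 and Htra3 below, the conditions did not overlap. Choosing the largest falls favours this, and no share over all genes is given. Chrdl2 had 1.46 and 2.47 kb in FISC and 0.551 and 0.297 kb in ASC, and fell by 1.54 kb (adjusted p = 0.0298, limma). Htra3, beside the chain of 7, had 2.12 and 2.63 kb in FISC and 0.615 and 1.36 kb in ASC, and fell by 1.39 kb (adjusted p = 0.0290, limma). Leaving out FISC replicate 1 or 2 raised the limma adjusted p to 0.0759 and 0.0640 for Bmp4 and to 0.0742 and 0.137 for Htra3, and for Chrdl2 it was 0.0655 without ASC replicate 2 and 0.0514 without FISC replicate 2. With a 1 kb window Edn3 (0.0618), Chrdl2 (0.0844) and Htra3 (0.209) missed the threshold. Chrdl2 also missed it with peaks of −log10 q of at least 5 and at equal covered length. In fits with a library left out, the lone library of a condition is assumed to vary like those of the other condition.

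A lost region did not go with a fall at every gene. Antxr2, which encodes a collagen and toxin receptor, had 3 lost regions, and its gene end rose from 2.03 and 2.16 kb in FISC to 4 and 3.98 kb in ASC (difference 1.89 kb, adjusted p = 0.00183, limma). Mki67, the proliferation marker, had 2 lost regions at least 184 kb away and rose from 0.493 and 0.260 kb to 2.16 and 2.10 kb (difference 1.76 kb, adjusted p = 0.00253, limma). Tbx3, a T-box repressor gene, rose by 1.76 kb, Pcolce2, a procollagen-processing enhancer gene, by 1.49 kb and Spsb1 by 1.46 kb (adjusted p = 0.0112, 0.00277 and 0.0135, limma). Divided by total covered length, Antxr2 and Spsb1 no longer passed (adjusted p = 0.0847 and 0.0527, limma) and no direction turned among these 5. Spsb1 also missed the threshold without FISC replicate 1 (0.0612) or 2 (0.0870), and at equal covered length its difference was 0.225 kb (0.382). With a 1 kb window the Antxr2 difference was 0.097 kb (0.308), and Tbx3 missed the threshold (0.136).

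Each list count below is of nearest genes, to be read against its whole list and against the 3.30% of all genes that fell and 25.9% that rose. Among the metabolic and stress regulators 8 nearest genes were tested, 3 fell and 0 rose at an adjusted p under 0.05 (limma), with a median of -0.20 kb, and in the whole list 5 of 30 fell and 3 rose, with a median of 0.04 kb. Gpx3 had 3.42 and 3.6 kb in FISC and 0.380 and 0.935 kb in ASC (fell by 2.85 kb, adjusted p = 0.00255, limma). Sod3 had 2.34 and 2.18 kb in FISC and 0 and 0.448 kb in ASC (fell by 2.04 kb, adjusted p = 0.00339, limma). Tef, a circadian output factor gene, had 1.86 and 1.79 kb in FISC and 0.858 and 1.09 kb in ASC (fell by 0.85 kb, adjusted p = 0.0128, limma). Among matrix genes 7 were tested, 3 fell and 0 rose, while in the whole list 5 of 31 fell and 10 rose. Hmcn2 (hemicentin 2) fell from 3.77 and 2.98 kb to 0.417 and 0.509 kb (adjusted p = 0.00371, limma), and Col6a1, a chain of collagen VI, from 2.39 and 2.17 kb to 0.759 and 0.686 kb (adjusted p = 0.00317, limma). Col15a1 had 1.28 and 1.60 kb in FISC and no peak in either ASC library. Genes had to be covered in at least 2 libraries, and Col15a1 met this only through FISC. Its call (adjusted p = 0.00372, limma) is therefore a description only. With 1 library left out Tef no longer passed, at a limma adjusted p of 0.0739 without FISC replicate 1 and 0.0709 without FISC replicate 2 (0.191 with a 1 kb window), and Col15a1 was below the filter on low values without either FISC library. Gpx3, Sod3, Hmcn2 and Col6a1 passed whichever library was left out. Col15a1 missed the threshold with both gene ends summed (0.0503), and Tef with peaks of −log10 q of at least 5.

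Of 7 satellite cell identity genes 3 fell at an adjusted p under 0.05 (limma), Chrdl2, Cxcr4 and Cd34, and Met rose. In the whole list 4 of 20 fell and 4 rose, with a median of -0.01 kb. Cd34 turned direction with a 5 kb window (0.35 kb higher in ASC), and its adjusted p was 0.0577 without ASC replicate 1, 0.126 without ASC replicate 2, 0.180 without FISC replicate 1 and 0.109 without FISC replicate 2 (limma). Cxcr4 had 3.90 and 3.97 kb in FISC and 3.04 and 3.44 kb in ASC (fell by 0.69 kb, adjusted p = 0.0288, limma). Met rose from 1.98 and 2.23 kb to 3.91 and 4 kb (adjusted p = 0.00231, limma, and 0.103 divided by total covered length). Pax7 had 3.26 and 3.08 kb in FISC and 2.83 and 2.84 kb in ASC (adjusted p = 0.0848, limma). Of 12 quiescence genes 4 fell (11 of 35 in the whole list), among them Col15a1, which is covered in FISC alone. Another 2 rose (5 of 35), Gas1 and Klf6, which both turned direction when divided by total covered length. Both also missed the threshold with a 5 kb window and with both gene ends summed. Gas1 and Cd34 missed it with peaks of −log10 q of at least 5, and Gas1 at equal covered length. Gas1 missed the threshold without ASC replicate 2 (0.140), FISC replicate 1 (0.0912) or FISC replicate 2 (0.150). Foxo1 fell from 3.45 and 3.55 kb to 2.85 and 3.03 kb (adjusted p = 0.0244, limma). Cxcr4 and Foxo1 missed the threshold without FISC replicate 1 (0.0884 and 0.0610) or 2 (0.113 and 0.0915), and Foxo1 also without ASC replicate 1 (0.0543) and with both gene ends summed (0.0564). With a 1 kb window the difference was 0 for Cxcr4 and -0.07 kb for Foxo1 (0.418), and Cd34 (0.429), Gas1 (0.0750), Klf6 (0.415) and Hes6 (0.0585) missed the threshold. Of 9 growth factor genes 1 fell, Bmp4 (1 of 35 in the whole list), and 2 rose (6 of 35), Met and Id2, of which Id2 turned direction when divided by total covered length and missed the threshold without ASC replicate 2 (0.0581). Hes6, the only tested Notch pathway gene of 4 to pass (1 of 18 fell and 3 rose in the whole list), rose from 1.64 and 1.29 kb to 3.21 and 3.48 kb (adjusted p = 0.00371, limma). Of 4 cell cycle genes 2 rose, against 18 of 24 in the whole list, namely Mki67 and Cdk6, a G1 kinase gene, which went from 1.86 and 1.90 kb to 3.38 and 4 kb (adjusted p = 0.00661, limma, and 0.163 at equal covered length).

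**Figure D5:**
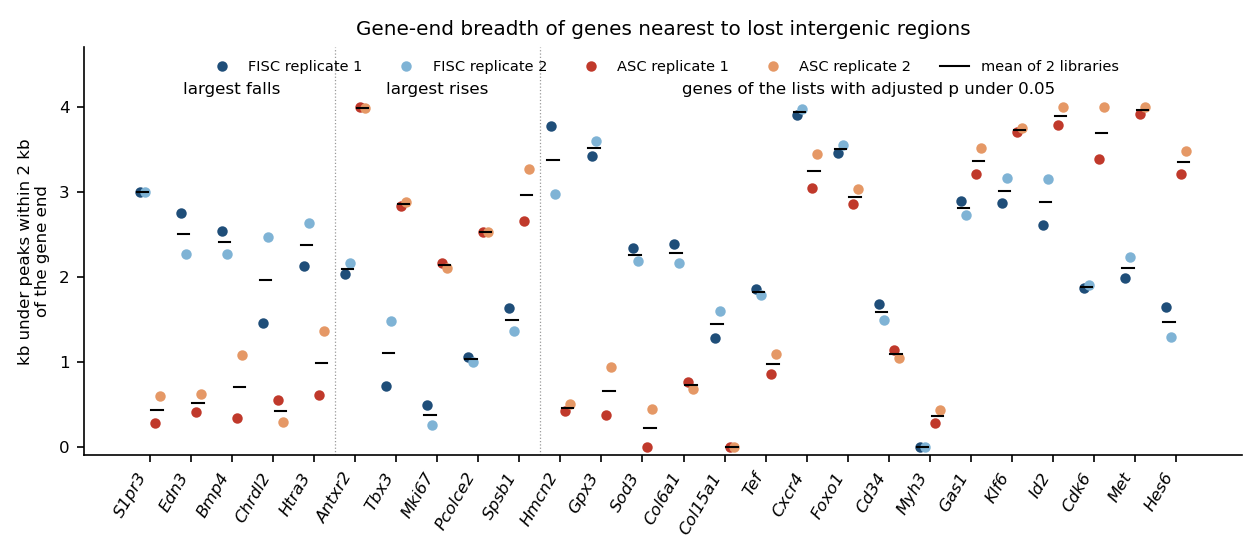
Kb under peaks within 2 kb of the gene end (y axis) for the 5 largest falls, the 5 largest rises and the list genes with adjusted p under 0.05 (x axis), with 1 point per library and a line at the mean of 2 libraries. S1pr3 sits at 2.99 kb in both FISC libraries and under 0.6 kb in ASC, while Antxr2 and Met reach 4 kb in ASC. Col15a1 is covered in FISC alone and Myh3 in ASC alone, so their calls are a description only.

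The label of the cells was checked against marker genes. All 10 muscle stem cell markers had peaks at their ends in both FISC libraries and 9 in each ASC library, with summed breadth between 23.9 and 24.4 kb in every library. Smooth muscle and pericyte markers moved with the condition, with 7 and 6 of 10 covered in FISC (8.52 and 7.48 kb) and 2 and 5 in ASC (4.65 and 5.70 kb), and Cnn1, Rgs5 and Kcnj8 uncovered in FISC. None of these 10 genes was the nearest gene of a lost region, but they were nearest to only 18 of all 21930 intergenic regions (0.0821%). Their part in the falls at S1pr3, Edn3 and the matrix genes was not tested. Endothelial markers were covered at 1 and 2 of 10 genes in FISC, with Pecam1 and Cdh5 uncovered, and at 1 in each ASC library. Fibroblast markers were covered at 4 and 2 of 10 in FISC and 3 and 6 in ASC. They were nearest to 4 lost regions (0.218%, against 0.237% of all intergenic regions), 2 at Dcn and 1 each at Col3a1 and Dpt. Myeloid markers had 1.97 and 2.1 kb in FISC and 3.61 and 5.82 kb in ASC. For myofibre markers the values were 3.04 and 3.08 kb in FISC and 7.29 and 8.63 kb in ASC. Schwann and tendon markers had 5.16 and 5.22 kb in FISC and 6.01 and 6.07 kb in ASC, and lymphoid markers 0.65 and 0.55 kb against 0.232 and 0 kb. No gene of the myeloid, myofibre, Schwann and tendon or lymphoid sets was nearest to a lost region. Among all intergenic regions these sets were nearest to only 14, 8, 5 and 0, so their absence beside lost regions says little. Fewer cells of a type and less of the mark per cell cannot be told apart in these bulk samples.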

How the data were processed

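H3K27ac was profiled in 2 FISC and 2 ASC libraries, grouped by the labels. Per the submitters' processing notes, bcl2fastq 2.19, BWA, Picard and MACS2 were used and the build was mm10, with no version given for the last 3. The deposited peak lists, 1 per library, give fold enrichment as a ratio, −log10 p and −log10 q, and a summit offset, all as the authors' caller wrote them. No source used here says whether inputs entered the calls. Regions were placed against RefSeq genes of GRCm38.p6 (21883 protein-coding genes, strand known for 17491). Gene-end breadth was fitted with limma 3.58.1 in R 4.3.3 (eBayes with trend, no block) over genes covered in at least 2 libraries, and the code was tested on simulated data. Python 3.11.15 was used elsewhere. The members and gene lists were chosen with earlier results of these data known. Named regions are the 10 strongest, the 5 widest and up to 4 per list. Named genes are the 15 with most regions and, among genes with at least 2 regions, the 5 largest falls and rises, passing over predicted names, besides list genes. The planned search of summit sequence needed a genome and was replaced, after the data were seen, by lncRNA starts.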

Additional observations from a re-analysis of the deposited data

How the results depend on the processing

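The count of lost regions stayed within 1.5 times of 1834 when lists were cut to equal peak number, overlap was set at 50% of the shorter peak, regions were joined within 500 bases or the distance limit was 1, 5 or 10 kb. It was 1120 with peaks of −log10 q of at least 5, 602 at a fold of at least 5 and 4106 at equal covered length, and 1943 to 4046 with each library left out in turn. The intergenic share, 34.6%, was 36.8% with the q limit, 37.6% with the fold limit, 31.4% at equal covered length, 36.1% with joined regions, 31.8% and 28.2% at limits of 5 and 10 kb, and 30.9 to 34.1% leaving out libraries. The flank ratio, 1.69, was 1.39 with the fold limit, 2.43 at equal covered length, 2.06 and 1.17 for flanks of 5 and 50 kb, 2.66 divided by total covered length, and 1.52 to 1.69 leaving out libraries. Nearest genes lower and higher in ASC numbered 28 and 90 with a 1 kb window, 465 and 41 divided by total covered length, and 141 and 102 at equal covered length. Leaving out libraries gave 15 to 62 lower and 54 to 169 higher. With a replicate block the numbers were 75 and 163, close to the unblocked fit, and Cd34 (adjusted p = 0.0579, limma), Gas1 (0.0554) and Myh3 (0.0698) did not pass. Same-numbered libraries did not deviate together over genes (correlation -0.005). Of 30 named genes with a call, 7 turned sign when divided by total covered length: Abraxas2 (-0.0084 kb), Efcab11 (-0.14), Gas1 (-0.85), Hint1 (-0.11), Id2 (-0.51), Klf6 (-0.80) and Sox4 (-0.39). Cd34 turned to 0.35 kb with a 5 kb window. With a 1 kb window 15 of the 30 no longer passed. The 30 include Col15a1, covered in FISC alone, and Myh3, covered in ASC alone. Each met the filter only through the group where it was high, so both calls are a description only. GC content and motifs round summits were not run. Leaving out the longest chain was chosen after seeing the data and gave 1801 regions, 34.2% and a flank ratio of 1.63.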

Other observations

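Some genes stood between lost and gained regions. Myc, the growth-promoting transcription factor gene, was nearest to 2 lost, 29 gained and 24 shared regions, and both lost regions had an ASC peak within 2 kb. Id2, an inhibitor of helix-loop-helix factors, was nearest to 3 lost, 12 gained and 4 shared regions, and Klf6 to 1, 12 and 4. Of the 165 genes with at least 3 lost regions, 65 had no gained one, Atg7 and Hrh1 among them. No matching count for genes beside gained regions is given. These counts are values only. They rest on assigning each region to its nearest gene end, which does not show which gene a region acts on, and on 2 libraries per condition with weak peaks near the caller's threshold.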
